A study of Homo sapiens with 24 samples.

Results

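Human cells carry 6 genes for DNA topoisomerases, the enzymes that change how the strands of DNA wind around each other. All 6 (TOP1, TOP1MT, TOP2A, TOP2B, TOP3A and TOP3B) were found by NCBI Gene identifier among the 28395 identifiers that both count tables list, and their messenger RNA was followed over 8 groups of 3 libraries. The groups are 2 human multiple myeloma cell lines, MM1.S (p53 wild type per the labels) and JJN3 (p53 null), each kept for 24 h with vehicle, CX-5461 (500 nM), panobinostat (50 nM) or both compounds at these doses. CX-5461 is an inhibitor of transcription by RNA polymerase I and panobinostat an inhibitor of histone deacetylases. The series was made to look for molecular changes behind the joint effect of the compounds. The measurement is 3′ RNA sequencing, which counts reads near the polyadenylated end of each transcript. Levels are given as CPM, the count of a gene scaled to the total count of its library. CPM is not corrected for transcript length, so levels are compared between groups for a gene and never between genes.

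Topoisomerases cut DNA, hold the cut end on a tyrosine of the enzyme, let strands pass or turn, and reseal the cut. The type IB enzymes TOP1 (nucleus) and TOP1MT (mitochondria) nick a single strand and let supercoils relax ahead of polymerases. The type IIA enzymes TOP2A and TOP2B cut both strands and pass another duplex through the gap: TOP2A is made by dividing cells and disentangles sister chromatids in mitosis, and TOP2B is also made by resting cells and acts at promoters and loop anchors. The type IA enzymes TOP3A and TOP3B pass single strands. TOP3A resolves joined DNA molecules with the helicase BLM, and TOP3B acts on DNA and RNA together with TDRD3. Drugs that keep an enzyme on its cut, called poisons, turn it into DNA damage, and CX-5461 has been reported to act on topoisomerase II as well.

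The promoters of the type IIA pair TOP2A and TOP2B are shown beside that of TOP1, a choice made with their values known. With panobinostat in MM1.S, TOP2A, TOP2B, TOP3A and TOP1MT were all called lower and TOP1 was not called. Each line holds the 250 bases before the annotated start of the gene, written 5′ to 3′ on the strand of the gene, from RefSeq on GRCh38.p14. Capitals mark the CCAAT box and the sequence TTTGAA, on either strand (ATTGG and TTCAAA on the opposite strand). CCAAT is bound by the factor NF-Y, and TTTGAA is the core of the cell cycle homology region found in genes of the division phase. TOP2A lies at chr17:40417897-40418146 on the minus strand. TOP2B has 2 annotated starts, of which the more upstream is shown, at chr3:25664908-25665157 on the minus strand. TOP1 lies at chr20:41028572-41028821 on the plus strand.
TOP2A: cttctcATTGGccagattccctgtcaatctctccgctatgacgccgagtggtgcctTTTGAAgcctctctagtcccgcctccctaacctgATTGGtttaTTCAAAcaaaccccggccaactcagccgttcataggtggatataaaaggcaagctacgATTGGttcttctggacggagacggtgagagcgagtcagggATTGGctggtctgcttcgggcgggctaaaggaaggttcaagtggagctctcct
TOP2B: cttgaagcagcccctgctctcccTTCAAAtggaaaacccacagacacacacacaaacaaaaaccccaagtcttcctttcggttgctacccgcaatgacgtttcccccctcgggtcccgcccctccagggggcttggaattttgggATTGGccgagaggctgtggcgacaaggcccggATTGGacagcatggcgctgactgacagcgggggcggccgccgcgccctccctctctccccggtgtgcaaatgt
TOP1: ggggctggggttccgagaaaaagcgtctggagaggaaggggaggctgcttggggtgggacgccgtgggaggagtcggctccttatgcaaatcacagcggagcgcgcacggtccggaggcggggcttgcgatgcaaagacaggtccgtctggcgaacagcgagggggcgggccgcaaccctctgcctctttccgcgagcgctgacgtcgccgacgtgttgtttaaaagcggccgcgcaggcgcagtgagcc

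The TOP2A promoter held the most CCAAT boxes among the 6 windows of the 5 members with an annotated promoter. Windows of 300 bases, 250 before and 50 after the start, were searched on both strands for these motifs and for the GC box, spelled GGGCGG. In the windows of the members, 0 pairs of matches of different motifs overlapped. TOP2A had 4 CCAAT boxes, whose first bases lie at -244, -160, -93 and -53 from the start, and 2 TTTGAA matches, at -194 and -151. Among the 35116 windows of all genes, 34.6% held CCAAT, 15.2% held TTTGAA, 5.90% held both and 0.991% held 4 or more CCAAT. The upstream window of TOP2B held 2 CCAAT boxes and 1 TTTGAA match, and its downstream window held neither. The windows of TOP1, TOP3B and TOP3A, the last also called lower with panobinostat in MM1.S, held neither sequence. GGGCGG was present in each of the 6 windows of the 5 members, beside 44.95% of all windows. Of 14 genes with a window among 20 markers of proliferation, 13 held CCAAT, 10 held TTTGAA and 9 held both. These are counts of genes over 16 windows, whereas the shares of all genes are by single window. A match describes the letters only.

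Total counts per library ranged from 4751893 to 7305069 with a median of 5551875. Every replicate pair differed by more than sampling noise. Whether replicates are separate cultures is not stated in the labels, so the spread behind each p-value may be only technical. In JJN3 the 4 libraries of replicate 2 stood apart on the second principal component (8.51% of the variance), at -25.6 to -13.9 against 2.56 to 16.8 for the others, and on the first (63.0%) panobinostat replicate 2 lay at -13.6 against -38.5 and -36.1 for the other 2. Plasma cell markers, 10 genes, summed to 8718 CPM with vehicle, 7297 with CX-5461, 1227 with panobinostat and 1109 with both in MM1.S, and to 4666, 4677, 3554 and 3033 in JJN3. In MM1.S 5 of the 10 fell with CX-5461, 9 with panobinostat and 10 with both compounds (median log2 fold change -0.41, -3.78 and -3.99), and 0 rose. There 7.06%, 32.9% and 33.2% of all genes were called lower. In JJN3 9 were tested, and 0 were called with CX-5461. With panobinostat 5 fell and 0 rose (median -0.71), and with both 6 fell and 1, PRDM1, rose by 0.46 ± 0.15 (SE, median -1.06). Of all genes, 10.9% and 18.2% were called lower there, and 15.0% and 21.0% higher. The part of this in the topoisomerase results was not tested. Group means of the summed T cell, myeloid, stromal and epithelial markers ranged from 0.158 to 20.5 CPM. In MM1.S the stromal sum was 2.05 CPM with vehicle, 16.3 with panobinostat and 20.5 with both. The myeloid sum there was 0.469 CPM with vehicle and 7.55 with CX-5461, where ITGAM (myeloid) rose by 8.44 ± 0.75 (log2, SE). COL1A1 (stromal) rose by 5.65 ± 0.49 and KRT18 (epithelial) by 3.03 ± 0.63 with panobinostat in MM1.S. In JJN3 with both compounds COL1A1 rose by 7.92 ± 1.62 and EPCAM (epithelial) fell (-0.89 ± 0.19). The lines were deposited as separate tables, so line and table cannot be told apart.

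With vehicle, TOP2A stood at 789, 843 and 832 CPM in the 3 MM1.S libraries and at 1122, 1287 and 1364 CPM in JJN3. In MM1.S it stood at 971, 822 and 1155 CPM with CX-5461, at 379, 448 and 375 CPM with panobinostat and at 394, 341 and 402 CPM with both. The 6 MM1.S libraries with panobinostat therefore lay below every MM1.S library without it. In JJN3 it stood at 1457, 1306 and 1668 CPM with CX-5461, at 1312, 1313 and 1403 CPM with panobinostat and at 1466, 1400.2 and 1279 CPM with both, and all of these groups overlapped vehicle. Ordered by mean level, the 4 JJN3 groups came first (1477 ± 182 CPM with CX-5461 to 1258 ± 124 with vehicle, SD, n = 3), then MM1.S with CX-5461 (983 ± 166) and vehicle (821 ± 28.1), then panobinostat (401 ± 40.8) and both (379 ± 33.5). The only neighbours in this order that did not overlap were MM1.S vehicle and MM1.S panobinostat.

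**Figure D1:**
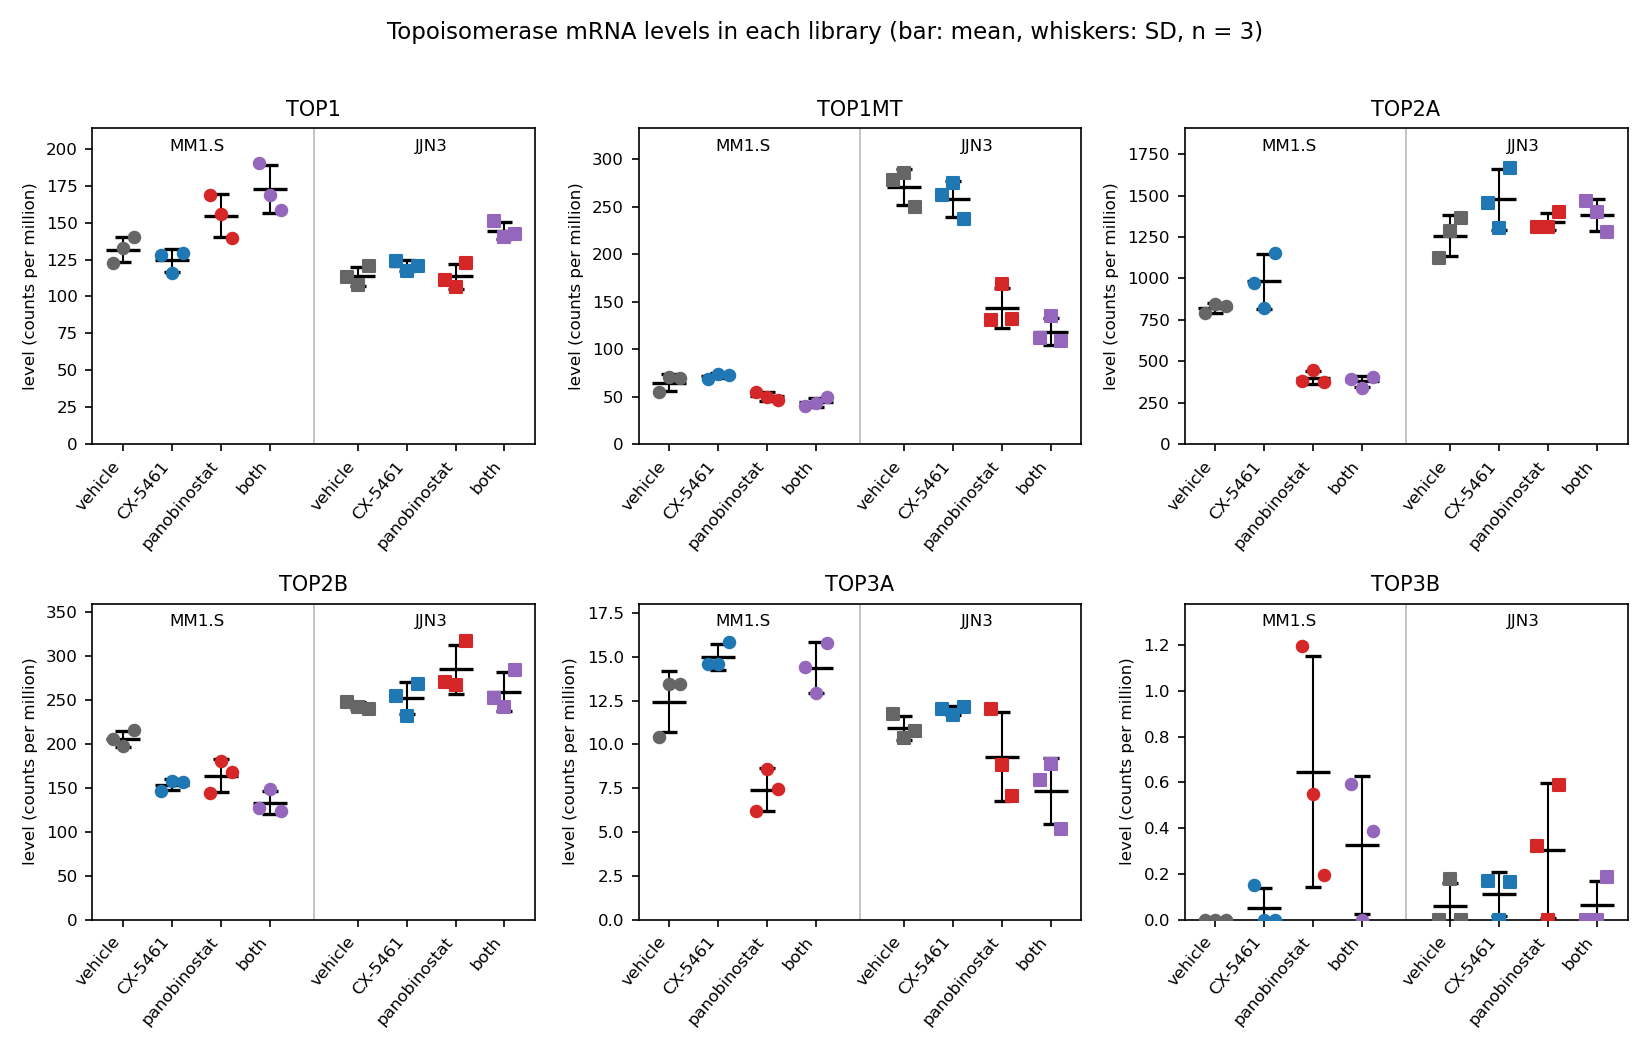
Level of each of the 6 topoisomerases (vertical axis, CPM, from 0) in the 24 libraries, by line and treatment (horizontal axis). Points are libraries, bars group means and whiskers SD (n = 3): TOP2A sits at 341 to 448 CPM in the 6 MM1.S libraries with panobinostat, below all other libraries, and TOP1MT is lower with panobinostat in JJN3.

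Of the 6 genes, 5 passed the filter on low counts, and TOP3B did not in any of the 14 comparisons. With CX-5461 in MM1.S, edgeR called 1 of the 5 (TOP2B, lower), beside 16.7% of the 12030 genes tested (9.68% higher and 7.06% lower). With panobinostat in MM1.S it called 4 of 5 (TOP2A, TOP2B, TOP3A and TOP1MT), all lower, beside 69.8% of all genes (36.9% higher and 32.9% lower). With both compounds in MM1.S it called 3 of 5 (TOP2A, TOP2B and TOP1MT), all lower, beside 70.2% (37.0% higher and 33.2% lower). In JJN3, 0 of 5 were called with CX-5461. There 0 of 11411 genes (0%) passed edgeR, although 633 had an unadjusted p under 0.05 and DESeq2 called 18. With panobinostat in JJN3, 1 of 5 was called (TOP1MT, lower), beside 26.0% of all genes (15.0% higher and 10.9% lower), and with both compounds 2 of 5 (TOP1MT and TOP3A, lower), beside 39.2% (21.0% higher and 18.2% lower). The 3 comparisons of a line share its vehicle libraries, so their results are not independent.

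TOP2A mRNA fell in MM1.S under panobinostat and showed no called change in JJN3. The log2 fold change was -1.17 ± 0.11 with panobinostat in MM1.S (SE, edgeR adjusted p = 1.90e-09) and -1.28 ± 0.11 with both compounds (edgeR adjusted p = 3.58e-10). In JJN3 the values were 0.07 ± 0.11 (edgeR adjusted p = 0.721, 95% interval -0.18 to 0.31) and 0.03 ± 0.11 (edgeR adjusted p = 0.869, 95% interval -0.21 to 0.27). The difference between the lines was itself called: with the MM1.S effect subtracted from the JJN3 effect, it was 1.26 ± 0.17 for panobinostat (edgeR adjusted p = 7.01e-07) and 1.33 ± 0.17 for both compounds (edgeR adjusted p = 2.68e-07). Of the 12872 genes, 33.3% were called in the former comparison (18.9% above 0 and 14.4% below) and 32.8% in the latter (18.8% and 14.0%). CX-5461 alone gave 0.19 ± 0.11 in MM1.S (edgeR adjusted p = 0.272) and 0.17 ± 0.11 in JJN3 (edgeR adjusted p = 0.955), with 95% intervals of -0.04 to 0.42 and -0.07 to 0.42. In bulk RNA, fewer cells in the phases that make TOP2A and less TOP2A mRNA per cell cannot be told apart.

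The other markers of dividing cells fell with TOP2A in MM1.S. All 20 proliferation markers were lower there with panobinostat, with a median log2 fold change of -1.65 against 0.07 over all genes tested. All 20 were lower with both compounds (median -2.18 against 0.06). Of all genes, 32.9% were called lower with panobinostat and 33.2% with both. FOXM1, a transcription factor of mitotic genes, was at -3.25 ± 0.13 and AURKB, a mitotic kinase, at -2.53 ± 0.11 with panobinostat (SE). The fall of TOP2A was smaller than that median. In JJN3, 2 markers rose and 4 fell with panobinostat (median -0.06 against 0.01 over all genes). There 15.0% of all genes were called higher and 10.9% lower. HMMR, a spindle protein, rose by 0.94 ± 0.17, CENPF, a kinetochore protein, rose by 0.38 ± 0.14, and UBE2C, an enzyme that marks cyclins for destruction, fell (-0.70 ± 0.13). In JJN3 with both compounds 2 rose and 9 fell, beside 21.0% of all genes higher and 18.2% lower. For all 20 markers the panobinostat effect was called as higher in JJN3 than in MM1.S (median difference 1.56 against 0.03 over all genes). The same was called for 18.9% of all genes. The summed level of the 20 markers was 2464 ± 137 CPM with vehicle and 799 ± 57.2 with panobinostat in MM1.S, and 2695 ± 282 and 2465 ± 90.9 in JJN3 (SD, n = 3). With CX-5461 in MM1.S, 3 markers rose and 5 fell, beside 9.68% of all genes higher and 7.06% lower. Among these NUSAP1, a spindle protein, was at 0.70 ± 0.11 and CDC20, an activator of the anaphase-promoting complex, at -1.29 ± 0.16. In JJN3, 0 were called with CX-5461, or 1 with the replicate number as a block. The part of these shifts in the TOP2A result was not tested.

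**Figure D2:**
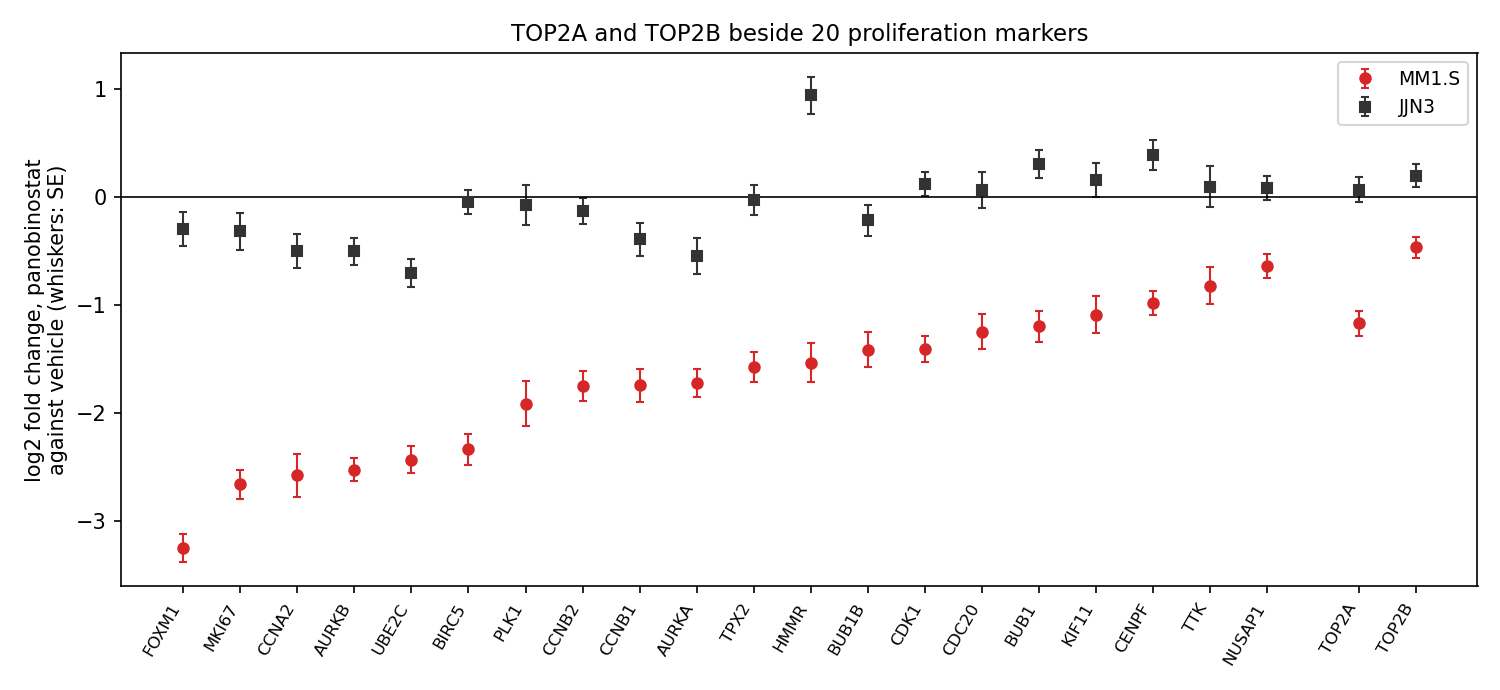
Log2 fold change with panobinostat against vehicle (vertical axis, whiskers SE) of 20 proliferation markers, ordered by their value in MM1.S, and of TOP2A and TOP2B at the right. Circles are MM1.S and squares JJN3: all MM1.S values lie below 0, TOP2A at -1.17 and TOP2B at -0.47, and the JJN3 values lie on both sides of 0.

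TOP2B mRNA fell in MM1.S with each compound, and was the only tested topoisomerase that edgeR called with CX-5461 alone. It stood at 205, 197 and 215 CPM with vehicle, at 146, 157 and 157 CPM with CX-5461, at 143, 180.0 and 167 CPM with panobinostat and at 127, 148 and 124 CPM with both. Every treated MM1.S library lay below every vehicle library. The log2 fold change was -0.50 ± 0.10 with CX-5461 (SE, edgeR adjusted p = 6.49e-04), -0.47 ± 0.10 with panobinostat (edgeR adjusted p = 1.35e-04) and -0.80 ± 0.10 with both (edgeR adjusted p = 7.61e-08). In JJN3 TOP2B stood at 248, 242 and 239.7 CPM with vehicle, at 255, 232 and 268 CPM with CX-5461, at 270.0, 266 and 317 CPM with panobinostat and at 252, 241 and 284 CPM with both. The panobinostat libraries of JJN3 lay above vehicle, but the log2 fold change of 0.19 ± 0.11 was not called (edgeR adjusted p = 0.197, 95% interval -0.03 to 0.42), and CX-5461 and both gave -0.01 ± 0.11 and -0.02 ± 0.11 (edgeR adjusted p = 1 and 0.886). Between the lines the TOP2B effect differed by 0.68 ± 0.14 for panobinostat (edgeR adjusted p = 3.34e-04) and 0.79 ± 0.14 for both compounds (edgeR adjusted p = 5.49e-05), JJN3 minus MM1.S. For CX-5461 the difference of 0.49 ± 0.14 was not called (edgeR adjusted p = 0.0825), and it was called by DESeq2 (adjusted p = 0.00904) and by edgeR with the replicate number as a block (adjusted p = 0.00598). Of all genes, 1.32% were called in that comparison of lines (0.287% above 0 and 1.03% below).

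The balance of the 2 type IIA mRNAs moved in opposite directions with the compounds in MM1.S. Per TOP2B count there were 3.85, 4.28 and 3.86 TOP2A counts with vehicle, 6.64, 5.23 and 7.36 with CX-5461, 2.64, 2.49 and 2.24 with panobinostat and 3.10, 2.30 and 3.25 with both. The CX-5461 libraries lay above and all 6 panobinostat libraries below the vehicle libraries. In JJN3 the ratio was 4.53, 5.32 and 5.69 with vehicle, 5.72, 5.63 and 6.23 with CX-5461, 4.86, 4.93 and 4.43 with panobinostat and 5.82, 5.80 and 4.50 with both, and every treated group overlapped vehicle. Between JJN3 libraries of the same number, however, the ratio was higher with CX-5461 than with vehicle in all 3 pairs, as were all CX-5461 libraries in MM1.S, and it went both ways with panobinostat and with both compounds. The ratio depends on the lengths and 3′ ends of both transcripts and is compared between groups only, as a description with no test.

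**Figure D3:**
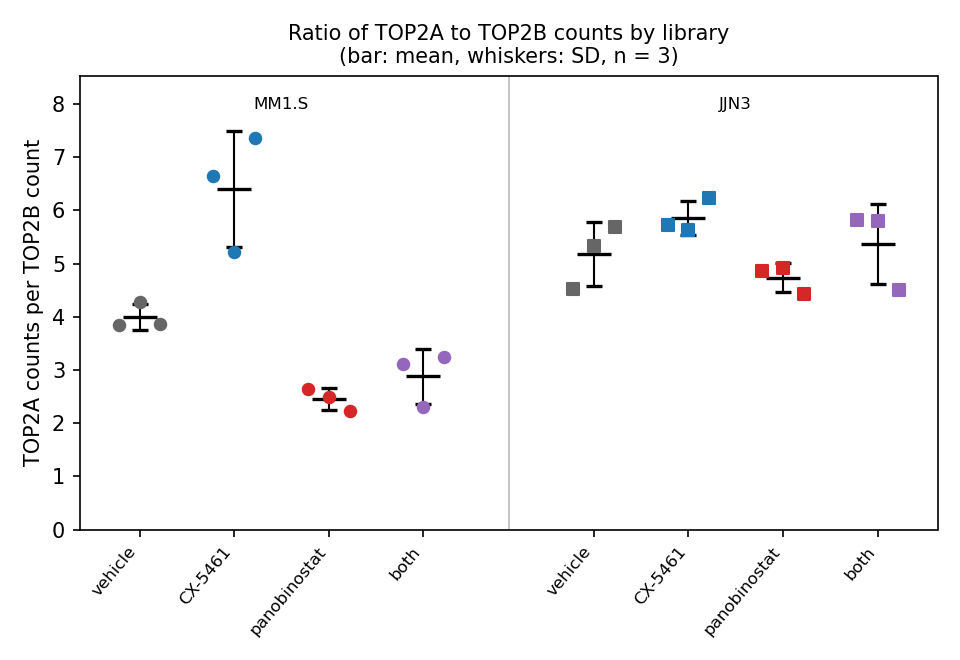
TOP2A counts per TOP2B count (vertical axis, from 0) in each of the 24 libraries, by line and treatment. Points are libraries, bars means and whiskers SD (n = 3): in MM1.S the ratio is 5.23 to 7.36 with CX-5461, 3.85 to 4.28 with vehicle and 2.24 to 3.25 in the 6 libraries with panobinostat.

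The machines that fold chromosomes beside the type IIA enzymes were mostly lower with panobinostat in MM1.S. Of 8 condensin genes 7 fell and 0 rose (median log2 fold change -1.14 against 0.07 over all genes), beside 32.9% of all genes lower and 36.9% higher, led by the core subunit SMC4 at -1.85 ± 0.11 and NCAPG2, a condensin II subunit, at -1.40 ± 0.11 (SE). Of 8 genes for cohesin, its regulators and CTCF, the ring and boundary proteins of chromatin loops where TOP2B binds, 6 fell and 0 rose (median -0.83), among them STAG2 at -2.01 ± 0.13 and CTCF at -1.32 ± 0.12. With both compounds in MM1.S, 7 condensins fell and 0 rose, and 5 cohesin and CTCF genes fell while 1, the cohesin loader NIPBL, rose by 0.32 ± 0.10. With CX-5461 alone in MM1.S, 3 condensins rose, among them NCAPH2 (0.67 ± 0.13) and SMC2 (0.44 ± 0.10), and 0 fell, while 0 of the 8 cohesin and CTCF genes were called. In JJN3 with panobinostat 0 condensins were called and 3 cohesin and CTCF genes fell, among them STAG2 at -0.84 ± 0.15 and CTCF at -0.44 ± 0.13. With both compounds in JJN3, NCAPG2 rose by 0.27 ± 0.10, NCAPG was at -0.59 ± 0.23, and 3 cohesin and CTCF genes fell, among them STAG2 at -1.48 ± 0.15. With library size alone as scaling, 1 condensin in place of 2 was called there. All genes called higher and lower made up 37.0% and 33.2% with both compounds and 9.68% and 7.06% with CX-5461 in MM1.S. In JJN3 they made up 15.0% and 10.9% with panobinostat and 21.0% and 18.2% with both.

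TOP1 mRNA showed no called change with any treatment in either line. In MM1.S it stood at 123, 133 and 139.9 CPM with vehicle, at 128, 116 and 129.6 CPM with CX-5461, at 169, 156 and 139.5 CPM with panobinostat and at 190.4, 168 and 159 CPM with both. The libraries with both compounds lay above all vehicle libraries, with a log2 fold change of 0.22 ± 0.11 (SE, edgeR adjusted p = 0.0678). In JJN3 it stood at 113, 108 and 120.4 CPM with vehicle, at 124, 117 and 121 CPM with CX-5461, at 111, 107 and 123 CPM with panobinostat and at 151, 140.0 and 142 CPM with both. Here too the libraries with both compounds lay above vehicle, with 0.23 ± 0.11 (edgeR adjusted p = 0.0901, 0.0213 with the replicate number as a block). These calls depended on the settings. With the replicate number as a block the MM1.S change with both compounds was called too (0.21, edgeR adjusted p = 0.0422). With library size alone as scaling, both compounds gave 0.39 in MM1.S (edgeR adjusted p = 0.00143) and 0.35 in JJN3 (edgeR adjusted p = 0.0156). Panobinostat alone then gave 0.23 in MM1.S (edgeR adjusted p = 0.0450) in place of 0.10 ± 0.11 (0.419). That scaling also raised the median of all genes by 0.17 with both compounds in MM1.S, by 0.11 in JJN3 and by 0.14 with panobinostat in MM1.S. The near copies TOP1P1 and TOP1P2 held 1 to 9 and 0 to 3 counts per library, against 507 to 1044 for TOP1. How reads shared by such copies were counted is not given in the sources used here, so TOP1 values are uncertain in that respect.

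Of 13 genes that remove trapped topoisomerases and mend the break, 3 rose and 6 fell with panobinostat in MM1.S (median log2 fold change -0.36 against 0.07 over all genes), in a comparison where 36.9% of all genes were called higher and 32.9% lower. RAD50, part of the nuclease complex that trims protein-blocked ends, rose by 0.54 ± 0.11, and TOPORS, a ubiquitin and SUMO ligase that binds TOP1, rose by 0.37 ± 0.11 (SE). PARP1, a sensor of strand breaks, was at -1.19 ± 0.10 and LIG3, a ligase of strand break repair, at -1.33 ± 0.14. TDP1, which cleaves the bond between DNA and the tyrosine of TOP1, fell (-0.82), and TDP2, which does so for type II enzymes, was at 0.00 and not called. Both compounds together in MM1.S gave 3 rises and 5 falls, with RAD50 at 0.64 ± 0.11 and PARP1 at -1.25 ± 0.10. With CX-5461 alone in MM1.S, ZNF451, a SUMO ligase that assists TDP2, rose by 0.38 ± 0.10, LIG3 fell (-0.54 ± 0.13) and PARP1 fell (-0.37 ± 0.10), while the other 10 were not called. In JJN3, 0 were called with CX-5461. With panobinostat 1 rose, RAD50 at 0.36 ± 0.13, and 5 fell, among them NBN, the partner of RAD50, at -0.56 ± 0.14. With both compounds 1 rose and 5 fell, with NBN at -0.90 ± 0.14 and PARP1 at -0.53 ± 0.10. Of all genes, 37.0% were called higher and 33.2% lower with both compounds in MM1.S, and 9.68% and 7.06% with CX-5461 there. In JJN3 the shares were 0% with CX-5461, 15.0% and 10.9% with panobinostat, and 21.0% and 18.2% with both. The replicate number as a block gave 157 genes called with CX-5461 there.

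Of the 5 tested topoisomerases, TOP1MT had the largest log2 difference between the untreated lines and was the only one called with panobinostat in both. With vehicle it stood at 54.5, 70.6 and 69.3 CPM in MM1.S and at 278, 285 and 249.6 CPM in JJN3, a log2 difference of 2.03 ± 0.13 (SE, edgeR adjusted p = 1.90e-14). In MM1.S it stood at 69.0, 74.0 and 72.8 CPM with CX-5461, at 54.8, 49.5 and 46.2 CPM with panobinostat and at 39.7, 43.4 and 49.2 CPM with both. The panobinostat libraries overlapped vehicle replicate 1, the lowest of its group, and those with both compounds did not. In JJN3 it stood at 262, 275 and 238 CPM with CX-5461, at 131, 168 and 132 CPM with panobinostat and at 111, 135 and 109 CPM with both, and the 6 libraries with panobinostat lay below the 6 without. Panobinostat gave -0.50 ± 0.12 in MM1.S (edgeR adjusted p = 6.55e-04) and -0.95 ± 0.14 in JJN3 (edgeR adjusted p = 1.03e-04), and both compounds gave -0.72 ± 0.12 (edgeR adjusted p = 9.33e-06) and -1.31 ± 0.14 (edgeR adjusted p = 1.94e-06). Without the 4 JJN3 libraries of replicate 2 the JJN3 values were -1.06 and -1.41, still called. The larger fall in JJN3 was called for both compounds (difference -0.57 ± 0.19, edgeR adjusted p = 0.0171) and not for panobinostat alone (-0.43 ± 0.18, edgeR adjusted p = 0.0723), where the call depended on the settings. It was called in 17 of 31 alternatives, among them the replicate number as a block (adjusted p = 0.0107), library size alone (0.0154), DESeq2 (0.0325) and the run without the 4 JJN3 libraries of replicate 2 (-0.61, 0.00936), with adjusted p from 0.00936 to 0.144 over all 31. CX-5461 alone gave 0.08 ± 0.12 in MM1.S and -0.13 ± 0.14 in JJN3, neither called (edgeR adjusted p = 0.696 and 0.980).

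Other genes that keep and copy mitochondrial DNA were mostly lower with panobinostat in MM1.S. Of 13, 8 fell and 2 rose (median log2 fold change -0.68 against 0.07 over all genes), beside 32.9% of all genes lower and 36.9% higher. TWNK, the replicative helicase of mitochondria, was at -1.70 ± 0.18 and SSBP1, their single-strand binding protein, at -1.0002 ± 0.10 (SE), while POLG2, the accessory subunit of their DNA polymerase, rose by 1.45 ± 0.38 and PRIMPOL, a primase and polymerase, by 1.62 ± 0.48. With both compounds in MM1.S 6 fell, among them SSBP1 at -1.03 ± 0.10, and 3 rose, and with CX-5461 alone 2 fell and 2 rose, among them the nuclease MGME1 (0.70 ± 0.12). In JJN3 11 of the 13 were tested: 0 were called with CX-5461, 4 fell and 0 rose with panobinostat, and 3 fell and 0 rose with both, where TWNK was at -1.48 ± 0.30 and RNASEH1, which removes RNA paired with DNA, at -0.51 ± 0.13. The 4 falls with panobinostat in JJN3 went to 0 with library size alone as scaling. Among all genes in MM1.S, 37.0% were higher and 33.2% lower with both compounds, and 9.68% and 7.06% with CX-5461. Among all genes in JJN3 the shares were 0% with CX-5461, 15.0% and 10.9% with panobinostat, and 21.0% and 18.2% with both. The replicate number as a block gave 157 genes called with CX-5461 there.

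TOP3A, at 28 to 116 counts per library, fell in MM1.S with panobinostat and was not called there with both compounds. It stood in MM1.S at 10.4, 13.4 and 13.5 CPM with vehicle, at 14.6, 14.6 and 15.9 CPM with CX-5461, at 6.18, 8.61 and 7.47 CPM with panobinostat and at 14.4, 12.9 and 15.8 CPM with both. The panobinostat libraries lay below all others of the line, and those with both compounds overlapped vehicle. The log2 fold change against vehicle was -0.87 ± 0.19 with panobinostat (SE, edgeR adjusted p = 2.73e-04) and 0.04 ± 0.18 with both (edgeR adjusted p = 0.841, 95% interval -0.32 to 0.41). Set against panobinostat alone, both compounds gave 0.92 ± 0.19 (edgeR adjusted p = 0.00580), the 1 topoisomerase called in that comparison beside 4.08% of all genes (2.44% higher and 1.65% lower). In JJN3 it stood at 11.7, 10.4 and 10.8 CPM with vehicle, at 12.04, 11.7 and 12.1 CPM with CX-5461, at 12.04, 8.84 and 7.06 CPM with panobinostat and at 7.95, 8.87 and 5.20 CPM with both. All 3 JJN3 libraries with both compounds lay below vehicle (-0.68 ± 0.25, edgeR adjusted p = 0.0353), a call that was lost without vehicle replicate 1 (0.0915), vehicle replicate 3 (0.0579), combination replicate 1 (0.0574) or combination replicate 3 (0.158), and with library size alone as scaling (0.0642). Without the 4 libraries of replicate 2 it was -0.89 (edgeR adjusted p = 0.0356). The difference between the lines in the effect of both compounds was -0.71 ± 0.30, JJN3 minus MM1.S (edgeR adjusted p = 0.0674). It was called in 14 of 31 alternatives, among them the replicate number as a block (adjusted p = 0.0258), DESeq2 (0.0399), limma-voom (0.0469), library size alone (0.0371) and the run without the 4 JJN3 libraries of replicate 2 (-0.98), with adjusted p from 0.0219 to 0.146 over all 31.

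TOP3B was at the edge of detection. In MM1.S it had 0 counts in each vehicle library, 1, 0 and 0 with CX-5461, 6, 3 and 1 with panobinostat and 3, 0 and 2 with both. In JJN3 it had 0, 1 and 0 counts with vehicle, 1, 0 and 1 with CX-5461, 2, 0 and 3 with panobinostat and 0, 0 and 1 with both. All 3 MM1.S libraries with panobinostat had counts and no vehicle library of the line had any. A count of 0 allows up to 3 counts, which is 0.411 to 0.631 CPM at the depths of these libraries and covers counting error only. TOP3B was left out of every fit with the filter on low counts, and its values in the run without that filter are not given.

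Among 7 partners of the type IA enzymes, calls with panobinostat in MM1.S came near the share of all genes called there (69.8%). With CX-5461 in MM1.S, BLM, the helicase that works with TOP3A, rose by 0.74 ± 0.16 and RMI2, a subunit of the same complex, by 0.72 ± 0.11 (SE). There 0 of the 7 partners fell (median log2 fold change -0.10 against 0.01 over all genes), beside 9.68% of all genes higher and 7.06% lower. With panobinostat in MM1.S, 2 rose and 3 fell (median -0.36), beside 36.9% of all genes higher and 32.9% lower: FXR1 at 0.85 ± 0.12 and FXR2 at 0.54 ± 0.10, RNA-binding proteins of the TOP3B and TDRD3 complex, rose, while their relative FMR1 (-0.62 ± 0.12), TDRD3 (-0.63) and RMI2 (-0.53 ± 0.12) fell. The counts with both compounds in MM1.S were also 2 and 3, beside 37.0% of all genes higher and 33.2% lower. In JJN3, 0 were called with CX-5461 or panobinostat, and with both compounds TDRD3 fell (-0.86 ± 0.19). The shares of all genes called there were 0%, 26.0% and 39.2%. With the replicate number as a block the JJN3 counts were 1, 2 and 2, beside 157, 4784 and 6104 of all genes.

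**Figure D4:**
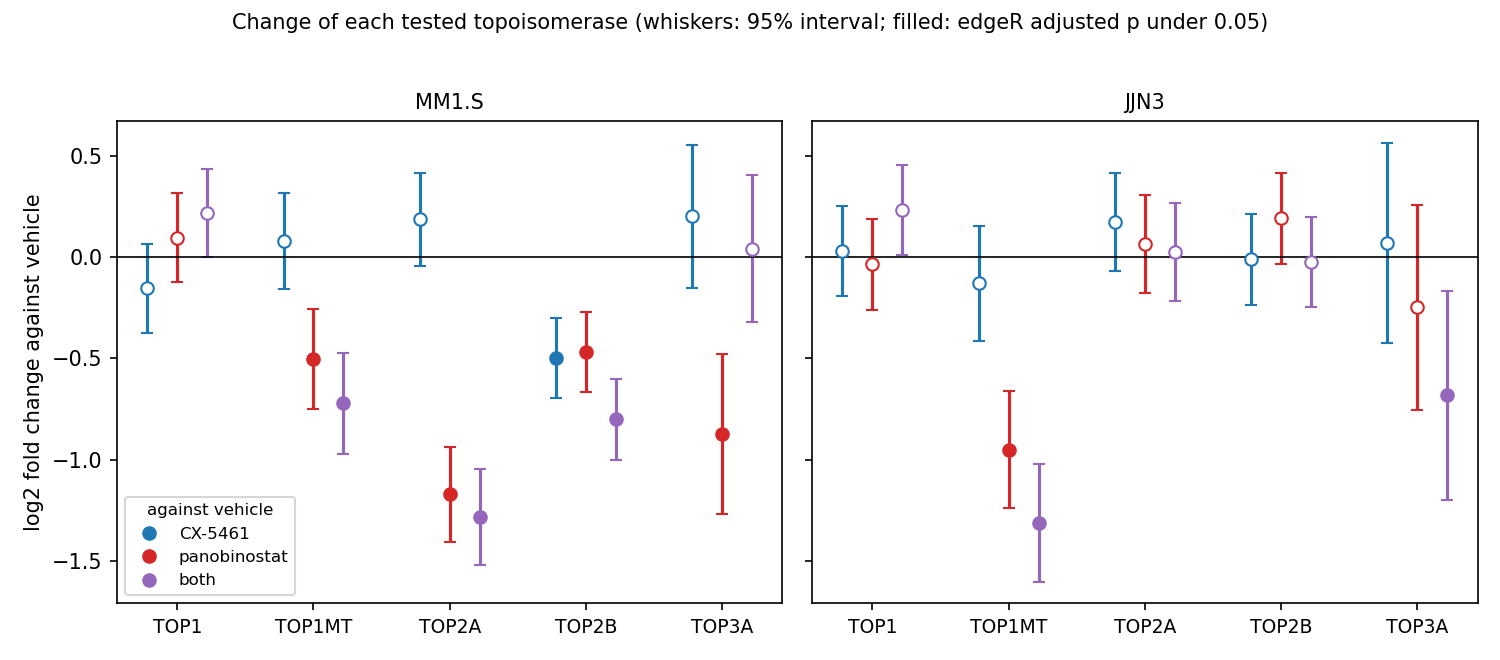
Log2 fold change against vehicle (vertical axis) of the 5 tested topoisomerases with CX-5461, panobinostat or both, in MM1.S (left) and JJN3 (right). Whiskers are 95% intervals and filled points passed edgeR at an adjusted p under 0.05: TOP2A and TOP2B are filled in MM1.S alone, TOP1MT with panobinostat in both lines, and TOP1 nowhere.

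Adding CX-5461 to panobinostat in MM1.S gave 1 called topoisomerase, TOP3A at 0.92 ± 0.19 (SE, edgeR adjusted p = 0.00580), beside 4.08% of all genes. TOP2B was at -0.33 ± 0.10 there (edgeR adjusted p = 0.0554). It was called without MM1.S vehicle replicate 2 (0.0499), panobinostat replicate 1 (0.00961) or combination replicate 2 (0.0306). DESeq2 (0.0225) and edgeR with the replicate number as a block (0.0185) called it too. In JJN3 0 of 5 were called, beside 0.903% of all genes (0.184% higher and 0.719% lower). TOP1 there was at 0.27 ± 0.11 (edgeR adjusted p = 0.247) and TOP1MT at -0.36 ± 0.14 (edgeR adjusted p = 0.225). With the replicate number as a block both were called (edgeR adjusted p = 0.0359 and 0.00561), beside 1399 of all genes. The effect of both compounds minus the sum of the single effects was called for 0 of 5 in MM1.S, beside 5.52% of all genes (1.87% above 0 and 3.65% below), and lay furthest from 0 for TOP3A at 0.71 ± 0.26 (edgeR adjusted p = 0.110, 95% interval 0.18 to 1.24). In JJN3 it was called for 0 of 5 and for 0 of 11411 genes (0%). There 564 genes had an unadjusted p under 0.05, DESeq2 called 18, and edgeR with the replicate number as a block called 105. The 5 values ranged from -0.51 ± 0.34 for TOP3A to 0.24 ± 0.15 for TOP1.

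Between the untreated lines, 3 of 5 topoisomerases were called, beside 63.7% of the 12872 genes tested (30.2% higher and 33.5% lower in JJN3). TOP1MT was 2.03 and TOP2A 0.57 ± 0.12 higher in JJN3 on the log2 scale (edgeR adjusted p = 1.90e-14 and 1.07e-04). TOP1 was at -0.25 ± 0.11 (edgeR adjusted p = 0.0430), a call lost in 24 of 31 alternatives, among them DESeq2 (0.0637), library size alone (0.0722), no filter on low counts (0.320) and the run without the 4 JJN3 libraries of replicate 2 (0.308). TOP2B was at 0.20 ± 0.10 (edgeR adjusted p = 0.0785), although the vehicle libraries of the lines did not overlap. It was called in 21 of 31 alternatives, among them the replicate number as a block (0.28, adjusted p = 0.0133), DESeq2 (0.0130), library size alone (0.0474) and the run without the JJN3 libraries of replicate 2 (0.0258). For CX-5461, 0 of 5 topoisomerases were called as differing in effect between the lines, beside 1.32% of all genes. TOP2B, at 0.49 ± 0.14 (edgeR adjusted p = 0.0825), was called by DESeq2 (adjusted p = 0.00904) and by edgeR with the replicate number as a block (0.00598). For panobinostat 2 of 5 differed (TOP2A and TOP2B, above 0 as JJN3 minus MM1.S), near the 33.3% of all genes called, and for both compounds 3 of 5 (TOP2A and TOP2B above 0, TOP1MT below), beside 32.8%.

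Across the 8 group means of log2 CPM, the genes closest in pattern to each topoisomerase were sought among 8575 genes by Pearson's r, as a description over 8 points that share line and treatment. They were MRPL40, MTFMT and FAM174A for TOP1 (0.98, 0.96 and 0.95), KHNYN, IL2RG and SPARC for TOP2A (1.00, 1.00 and 0.99), CDC20, SLC30A7 and TMED10 for TOP2B (0.99, 0.99 and 0.98), RABL6, HIC2 and NFKBIB for TOP3A (0.94, 0.94 and 0.93) and FAM216A, NAAA and TMTC4 for TOP1MT (0.99 each). Among the topoisomerases, TOP2A followed TOP2B (0.87) and TOP1MT (0.85) and ran against TOP1 (-0.86), while TOP3A had values from -0.30 to 0.00 with the others. These values mix the difference between lines with that between treatments.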

How the data were processed

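The data are 3′ RNA sequencing of polyA RNA in 24 libraries, and each was placed in its group by its title. In 2 JJN3 libraries the treatment field of the labels numbers the CX compound differently from the title, which was followed. For each line the authors deposited 1 table of raw read counts per gene, not normalised. The submitters' processing notes list limma 3.50.0, featureCounts 2.0.1 and HISAT2 2.2.1 as tools and hg19 and GRCh37 as builds, with no role. Annotation, strand setting and the treatment of multiply mapped reads are not given in the sources used, so antisense reads cannot be told apart. Symbols were matched by gene identifier for 27745 of 28395 identifiers. The other 650 held at most 0.0387% of a library's counts.

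Counts were tested with edgeR 4.0.16 in R 4.3.3 (TMM scaling, filterByExpr, robust quasi-likelihood F test, two-sided), with Benjamini-Hochberg adjustment over all genes tested. A gene is called at an adjusted p under 0.05. Each line was fitted on its 12 libraries (12030 genes in MM1.S and 11411 in JJN3), and lines were compared in a fit of all 24 (12872 genes). The coefficient of biological variation was 0.107, 0.154 and 0.133. Log2 fold changes thus use TMM, with factors of 0.921 to 1.08, and CPM uses library size. The fits were tested on simulated data. Alternatives were DESeq2 1.42.0, limma-voom (limma 3.58.1), other scalings, no filter on low counts, the replicate number as a block, and leaving out libraries.

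Same-numbered JJN3 libraries deviated together from their group means in all 18 pairs (r from 0.201 to 0.485, different numbers -0.337 to -0.00791), so blocked values are given beside JJN3 results whose call they change. The source of this pairing is the values; the labels name no batch.

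All members are named. Genes named from a list were among the 2 called with the smallest adjusted p in each direction per treatment, or named for their role. Not all such genes were named, and of the plasma cell markers only PRDM1 was. Genes of like pattern are the 3 with the highest r and an average log2 CPM of at least 3 (prior count 2). The members and lists were chosen with earlier results of these data known.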

Additional observations from a re-analysis of the deposited data

Results flagged for a closer look

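The effect of a treatment differed between the lines for 3 topoisomerases by the edgeR test of the difference itself, always given as JJN3 minus MM1.S on the log2 scale. For panobinostat the difference was 1.26 for TOP2A (edgeR adjusted p = 7.01e-07) and 0.68 for TOP2B (edgeR adjusted p = 3.34e-04). For both compounds it was 1.33 for TOP2A (edgeR adjusted p = 2.68e-07), 0.79 for TOP2B (edgeR adjusted p = 5.49e-05) and -0.57 for TOP1MT (edgeR adjusted p = 0.0171). Of the 12872 genes tested, 33.3% were called in the panobinostat comparison and 32.8% in that of both compounds, so such differences were common among all genes. TOP2A and TOP2B fell in MM1.S and were not called in JJN3, while TOP1MT fell in both lines and further in JJN3. Dixon's test for an outlying value was not applied, since each group holds 3 libraries.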

How the results depend on the processing

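Over 70 log2 fold changes of topoisomerases and 1545 alternative values, 1399 kept direction and side of the threshold, 29 lost a call, 66 gained one, 51 changed sign without a call, and 0 reversed a call. Topoisomerases called with both compounds against panobinostat in MM1.S went from 1 to 2 with DESeq2, to 2 with the replicate block and to 1 to 2 when libraries were left out in turn. With both compounds against vehicle in JJN3 they ranged from 1 to 2 in such runs. In JJN3, both compounds against panobinostat gave 2 in place of 0 with the replicate block. The CX-5461 difference between the lines gave 1 in place of 0 with DESeq2 and 1 with the replicate block. Calls over all genes rose in these settings too. Both compounds against panobinostat in MM1.S gave 530 with DESeq2 and 925 with the block in place of 491. In JJN3 the block gave 1399 in place of 103. The CX-5461 difference between the lines gave 243 with DESeq2 and 582 with the block in place of 170. Calls that depend on the settings are the TOP2B, TOP3A, TOP1 and TOP1MT values given above, and beyond them the cause was not tested. Same-numbered MM1.S libraries deviated together only weakly (median r 0.0699, from -0.0474 to 0.290, 6 of 18 pairs over 0.1; different numbers median -0.0377), so they were not taken as pairs, and there the replicate block gained TOP1 with both compounds (0.21, adjusted p = 0.0422).

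Counts of all genes called moved by over 1.5 times as follows. With the replicate block they went from 491 to 925 and from 664 to 1023 in MM1.S (both compounds against panobinostat, and the departure from additivity), and in JJN3 from 0 to 157 (CX-5461), 2964 to 4784 (panobinostat), 103 to 1399 (both against panobinostat) and 0 to 105 (additivity), and from 170 to 582 for the CX-5461 difference between lines. Without the filter the JJN3 counts were 31, 439 and 46 for CX-5461, both against panobinostat and additivity, and 310 for the difference between lines. Both against panobinostat in JJN3 gave 68 without the 4 libraries of replicate 2. DESeq2 gave 18, 264 and 18 for the same 3 JJN3 comparisons. Leaving out libraries gave 175 to 1177 and 415 to 1042 in MM1.S, lowest without panobinostat replicate 3 and highest without panobinostat replicate 1. For both against panobinostat in JJN3 it gave 0 (without combination replicate 1) to 156 (without vehicle replicate 2), for CX-5461 and additivity in JJN3 0 to 2 and 0 to 1, and for the CX-5461 difference between lines 108 (without MM1.S vehicle replicate 1) to 245. JJN3 panobinostat gave 1957 without panobinostat replicate 1. With library size alone the share of called genes that were higher went from 57.8% to 75.2% (CX-5461, MM1.S), 59.7% to 72.8% and 20.4% to 51.3% (both against panobinostat, MM1.S and JJN3), 53.7% to 65.7% (both against vehicle, JJN3) and 56.8% to 46.8% (the panobinostat difference between lines). The 3 replicates per group and 28 to 116 counts per library limit TOP3A, and TOP3B did not pass the filter on low counts.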
